A study of Mus musculus with 6 samples.

Results

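The subject here is a set of 10 transcription factor genes that set or maintain the identity of lung epithelium, namely Nkx2-1, Etv5, Cebpa, Foxa1, Foxa2, Gata6, Klf5, Elf3, Ehf and Grhl2. They were found by symbol, and all 10 are among the 13931 genes of the deposited tables. Their transcripts were measured by RNA sequencing in lung alveolar epithelial type 2 (AT2) preparations of 6 C57BL/6 mice, 3 given PBS repeatedly and 3 given bleomycin, a DNA-cleaving drug that injures the lung, repeatedly at 1 U/kg. The labels give no genetic change in either group, and as labelled the groups differ in the agent. Details not given in the sources used here include age, sex, route, the number and timing of exposures and how the cells were purified. That the 3 libraries of a group came from 3 separate mice is stated in the series' design text. Values are FPKM, fragments scaled to transcript length and to the total mapped in a library, summed over the listed transcripts of a gene. They are scaled to transcript length, so the levels of different genes can be set side by side, but the number of reads behind each is unknown.

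Lung epithelial identity rests on a small network of factors that bind the same enhancers and each other's genes. NKX2-1, a homeodomain protein, is required for the lung to form and later drives surfactant genes together with FOXA1, FOXA2, GATA6 and CEBPA. ETV5 is an ETS factor that acts downstream of FGF and MAP kinase signalling and keeps AT2 cells in their state. KLF5, ELF3, EHF and GRHL2 are shared with other epithelia, and GRHL2 maintains genes of cell junctions. Several are also used outside epithelium, CEBPA for example in macrophages and neutrophils.

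The regulatory DNA next to some of these genes is shown first, because these factors are known to act on one another. RefSeq promoter windows of GRCm38.p6, the assembly called mm10, were matched for 6 of the 10 genes, and those of Nkx2-1, Etv5 and Foxa1 are printed. Nkx2-1 and Etv5 had the largest fitted differences between the groups, and Foxa1 holds the same FOXA letters as Etv5. Each run is the 250 bases before an annotated start, read 5′ to 3′ on the minus strand, where these 3 genes lie. Capitals mark matches to any motif searched. The Etv5 run precedes transcript Etv5-003, which made up 2.3% of the gene's FPKM with PBS and 4.2% with bleomycin. Part of that run lies inside Etv5-001, the main transcript, which starts at 22439719.
Nkx2-1, chr12:56536909-56537158: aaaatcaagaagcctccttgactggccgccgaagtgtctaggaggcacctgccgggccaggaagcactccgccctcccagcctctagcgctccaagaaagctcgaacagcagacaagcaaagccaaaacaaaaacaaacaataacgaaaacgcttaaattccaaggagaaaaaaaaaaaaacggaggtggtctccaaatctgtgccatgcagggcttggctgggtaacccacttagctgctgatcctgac
Etv5, chr16:22439571-22439820: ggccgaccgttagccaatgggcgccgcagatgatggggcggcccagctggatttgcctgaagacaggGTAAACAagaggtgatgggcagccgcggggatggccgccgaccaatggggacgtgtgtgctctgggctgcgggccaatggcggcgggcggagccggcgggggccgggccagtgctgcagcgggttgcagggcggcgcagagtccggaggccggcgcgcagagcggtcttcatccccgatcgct
Foxa1, chr12:57546112-57546361: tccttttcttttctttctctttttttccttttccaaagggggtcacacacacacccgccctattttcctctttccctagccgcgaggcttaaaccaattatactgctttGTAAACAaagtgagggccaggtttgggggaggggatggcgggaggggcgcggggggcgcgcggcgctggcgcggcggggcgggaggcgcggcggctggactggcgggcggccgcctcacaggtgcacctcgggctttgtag

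The motifs were searched on both strands of each 300-base window (250 bases before and 50 after a start), and the share of all 32851 windows in the reference that hold a motif gives its background. The FOXA motif was TGTTTAC, held by 3.65% of all windows. It was present in the window of Etv5 that begins transcript Etv5-003 and in that of Foxa1. The NKX2-1 motif was CTCAAG, held by 15.9% of all windows. Of the 6 genes with windows only Foxa2 held it, in 1 of its 3 windows, where it overlaps a GATA motif, AGATAA, held by 11.2% of all windows. The KLF motif was CCACCC, held by 31.5% of all windows, and it was found for Cebpa, Elf3, Foxa2 and the other Etv5 window. An ETS motif, CCGGAAG, held by 8.86% of all windows, was in none of the 9 windows of these genes. The same was so for a CEBP motif, TTGCNNAA, held by 10.8% of all windows, and for a GRHL motif, AACNGGTT, held by 2.09%. The Nkx2-1 window, that of transcript Nkx2-1-002, held no match to any of the 7 motifs. Nkx2-1-001, with 66.6% of the gene's FPKM in PBS libraries, starts at 56535106. Its start had no window and was not searched. The matches describe letters and were not tested as binding sites.

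The preparations carried the markers of the labelled cell type, with Sftpc, the surfactant protein C gene that defines AT2 cells, at 13393 to 20624 FPKM in PBS libraries and 2356 to 5805 in bleomycin libraries. They also held RNA of other cells, in different amounts by group. The summed FPKM of 12 leukocyte markers was 33.5 to 55.9 in PBS and 977 to 1402 in bleomycin libraries, and that of 10 endothelial markers 36.2 to 41.6 and 337 to 618. Of these markers 10 of 12 and 10 of 10 rose (limma), among them Ptprc (CD45) by 5.59 and Pecam1 (CD31) by 3.28 on the log2 scale. Over all tested genes 15.2% were called higher. Genes were tested if they reached 1 FPKM in 3 libraries or more. Lck and Cldn5, for example, were below 1 FPKM in every PBS library and could be tested only through the bleomycin libraries. Among the endothelial 10, Cldn5 reached 68.1, 146 and 75.6 FPKM with bleomycin but is listed at 0 in all PBS libraries, where an exact 0 can be a failed estimate. The sum of 10 mesenchymal markers was 4449 to 6742 with PBS and 1329 to 2923 with bleomycin, with 5 of 10 genes lower, a count of 1 without PBS replicate 1, PBS replicate 3 or bleomycin replicate 2 and of 3 without PBS replicate 2. With libraries scaled to equal epithelial surface genes, as described below, 0 of these 10 were called. The sum of 8 airway markers, 2465 to 10730 and 2654 to 3965, overlapped between groups, and 0 of its 6 tested genes passed the limma test, with 2 higher at an unadjusted p under 0.05. On the epithelial scale 4 of the 6 were called higher, and with array weights or without bleomycin replicate 3 the count was 2. Of 8 alveolar type 1 markers Ager alone fell (-1.24) and 0 rose (limma), with a median of -0.034. On the epithelial scale 0 of these 8 were called lower and 2 higher. No marker of these lists was at 0 in all 6 libraries, but the basal cell genes Krt5 and Trp63 stayed below 1 FPKM in each. The part of these other cells in the results below was not tested, and in bulk RNA fewer epithelial cells cannot be told apart from less RNA of a gene per cell.

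In PBS libraries Etv5 and Nkx2-1 were the most abundant of the factors, with means of 117 ± 57 and 62.3 ± 44.4 FPKM (SD, n = 3). They stood above 97.7% and 95.3% of all listed genes. Elf3 (17.1), Gata6 (16.0), Foxa2 (13.0), Klf5 (11.8), Foxa1 (7.51), Ehf (6.94) and Grhl2 (6.55) followed. Cebpa was listed at 0. In this order only Nkx2-1 and Elf3 are neighbours whose 3 PBS values did not overlap, leaving out Cebpa. With bleomycin Etv5 (22.7 FPKM) and Nkx2-1 (17.6) again led, and each tested factor overlapped its neighbour in the order.

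The comparison of bleomycin with PBS asks whether the transcripts of these factors differ after repeated injury. Etv5, Ehf and Grhl2 fell, no factor rose, and the other 6 tested factors did not pass. All 9 tested factors had a fitted difference below 0, as did 43.9% of all tested genes. The 3 that fell are 3 of 9, against 7.34% of the 12326 tested genes that were called lower and 15.2% called higher (limma, adjusted p under 0.05 over all genes). The median log2 fold change of the 9 factors was -1.25, beside 0.09 over all tested genes. In 4 factors every bleomycin value lay below every PBS value, which held for 16.4% of all tested genes. The reverse held for 0 factors and 27.2% of all tested genes. Fold changes are differences of log2(FPKM + 1) and understate the change of low genes. Cebpa did not reach 1 FPKM in 3 libraries and was not tested.

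**Figure D1:**
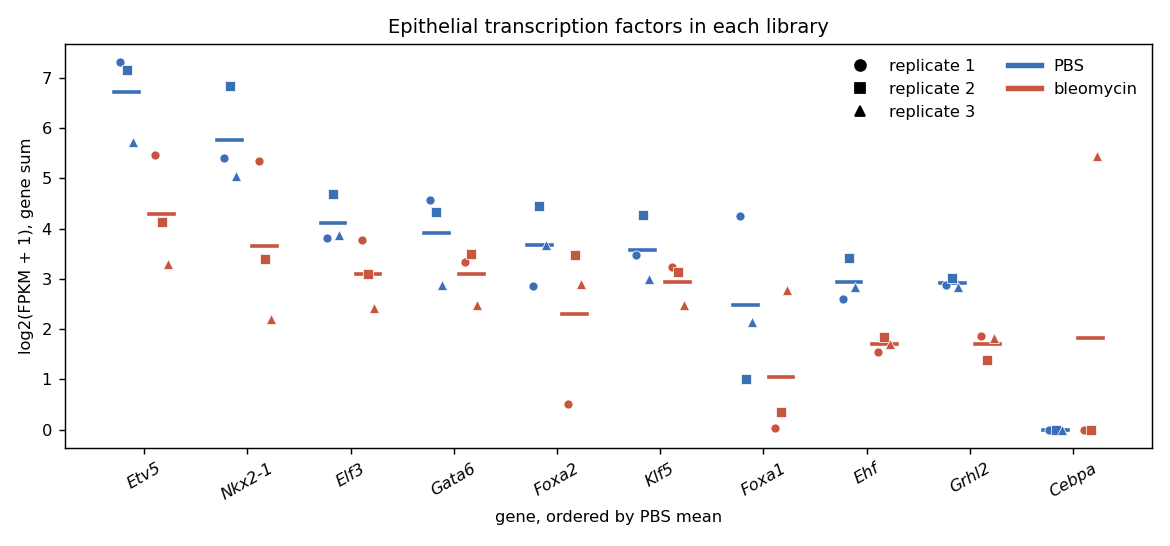
FPKM of the 10 factors on a log2(FPKM + 1) axis, 1 symbol per library (circle, square and triangle for replicates 1, 2 and 3) with a line at the mean of the 3 log values of each group. Etv5, Elf3, Ehf and Grhl2 have no overlap between the PBS and bleomycin symbols, while Foxa1 spreads widely within both groups and Cebpa leaves 0 in a single library.

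Etv5 (ENSMUSG00000013089.15, mm10 chromosome 16, 22381309 to 22439719, minus strand) stood at 157, 142 and 51.5 FPKM in the PBS libraries and at 42.8, 16.5 and 8.81 FPKM in the bleomycin libraries, both in replicate order. The groups did not overlap, but the lowest PBS library and the highest bleomycin library were close. The log2 fold change was -2.43 ± 0.64 (SE, 95% interval -3.97 to -0.90, limma adjusted p = 0.0389), the largest fitted difference of the 9 factors. It no longer passed when any of 4 libraries was left out, namely PBS replicate 1 (limma adjusted p = 0.114), PBS replicate 2 (0.108) and bleomycin replicates 2 (0.105) and 3 (0.0851). Its fold change ran from -1.93 to -3.01 over the 6 fits that leave out a library.

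Nkx2-1 (ENSMUSG00000001496.15, mm10 chromosome 12, 56531958 to 56536908, minus strand) measured 41.5, 113 and 32.1 FPKM with PBS and 39.6, 9.56 and 3.58 FPKM with bleomycin, in replicate order. Bleomycin replicate 1 lay within the PBS values, and the other bleomycin libraries lay below all of them. Its log2 fold change was -2.12 ± 0.84 (95% interval -4.13 to -0.11) and did not pass (limma adjusted p = 0.12). Without bleomycin replicate 1 it was -2.97 with an adjusted p of 0.0344.

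Ehf and Grhl2 had the lowest PBS means of the tested factors. Ehf, an ETS factor of glandular and airway epithelium (ENSMUSG00000012350.15, mm10 chromosome 2, 103263433 to 103303278), measured 5.03, 9.68 and 6.11 FPKM with PBS and 1.91, 2.58 and 2.26 with bleomycin. It changed by -1.25 ± 0.25 (95% interval -1.85 to -0.65, limma adjusted p = 0.0153), and the call was lost without bleomycin replicate 1 (adjusted p = 0.0541). Grhl2 (ENSMUSG00000022286.15, mm10 chromosome 15, 37233036 to 37363569) measured 6.39, 7.11 and 6.16 FPKM with PBS and 2.65, 1.63 and 2.55 with bleomycin. Its change of -1.22 ± 0.19 (95% interval -1.68 to -0.76) had the smallest adjusted p of the set, 0.00624, and stayed called with any single library left out (adjusted p 0.015 to 0.0264). The PBS values of Grhl2 differed by at most 1.15-fold, the narrowest spread of the tested factors.

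Elf3, the other epithelium-specific ETS factor of the set (ENSMUSG00000003051.13, mm10 chromosome 1, 135253575 to 135258568), measured 13.0, 24.6 and 13.7 FPKM with PBS and 12.6, 7.50 and 4.33 with bleomycin. The groups did not overlap, by a small margin between PBS replicate 1 and bleomycin replicate 1, and the change of -1.03 ± 0.40 did not pass (limma adjusted p = 0.112). Gata6, the zinc finger partner of NKX2-1 (mm10 chromosome 18, 11052510 to 11085635), measured 22.6, 19.0 and 6.32 FPKM with PBS and 9.09, 10.2 and 4.54 with bleomycin (-0.82 ± 0.50, limma adjusted p = 0.283). Klf5, a zinc finger factor of lung maturation (mm10 chromosome 14, 99298691 to 99313405), measured 10.1, 18.3 and 6.98 FPKM with PBS and 8.37, 7.74 and 4.56 with bleomycin (-0.64 ± 0.37, limma adjusted p = 0.262). In both Gata6 and Klf5 PBS replicate 3 lay among the bleomycin values. Without that library the groups of 7 factors did not overlap, Nkx2-1, Gata6 and Klf5 joining the 4 above, although none of these 3 passed in that fit either. With fewer libraries groups separate more easily, and the share of all tested genes without overlap was not counted there.

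Foxa1, one of the forkhead pair, had the largest standard error of the tested factors, 1.01 on the log2 scale. It (ENSMUSG00000035451.6, mm10 chromosome 12, 57540631 to 57546121) measured 18.1, 1.02 and 3.42 FPKM with PBS and 0.0212, 0.278 and 5.86 with bleomycin, so that bleomycin replicate 3 exceeded 2 of the 3 PBS libraries. Foxa2 (ENSMUSG00000037025.11, mm10 chromosome 2, 148042877 to 148046969) measured 6.28, 20.9 and 11.8 FPKM with PBS and 0.423, 10.2 and 6.44 with bleomycin. Both were at their lowest in bleomycin replicate 1, where Nkx2-1, Etv5 and Elf3 were at their bleomycin maximum. The 95% intervals of their log2 fold changes ran from -3.84 to 1.0 for Foxa1 and from -3.30 to 0.56 for Foxa2 (limma adjusted p = 0.359 and 0.269), and so include large falls and no change.

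Cebpa (ENSMUSG00000034957.10, mm10 chromosome 7, 35119293 to 35121928), a leucine zipper factor of AT2 maturation, had a value in bleomycin replicate 3 alone, 42.8 FPKM, and is listed at 0 in the 5 others. In GENCODE M21 the transcript that carried that value has 1 exon and the other listed transcript has 2. An exact 0 can be a failed estimate in these tables. Of 85 genes with 1 exon in every listed transcript that reached 10 FPKM in some library, 64 (75.3%) were listed at 0 in another library, against 9.31% of 204 genes with at most 2 exons and 0.587% of 6647 genes with 3 or more. By its listed transcripts Cebpa belongs to the class with at most 2 exons, although its value came from the 1-exon transcript. Of the 204 genes of that class 1, Cebpa itself, was at 0 in 5 libraries, and of the 85 1-exon genes 9 were. Whether its zeros are failed estimates was not tested. With a value in a single library, no comparison of Cebpa is made.

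**Figure D2:**
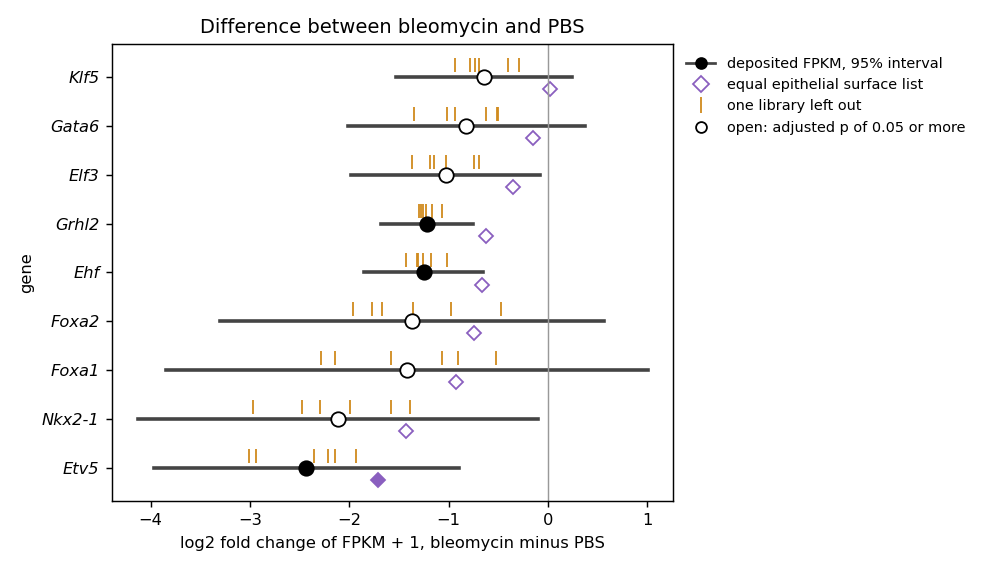
Log2 fold change of each tested factor, bleomycin minus PBS, on log2(FPKM + 1). Circles with bars are estimates with 95% intervals from the deposited FPKM, filled where the adjusted p is under 0.05, diamonds the estimates with libraries scaled to equal epithelial surface genes, and ticks the estimates with 1 library left out. Filled circles are Etv5, Ehf and Grhl2, and with equal epithelial surface genes only the diamond of Etv5 is filled.

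To set the factors against epithelial RNA as a whole, each library was also scaled to the same mean log2 level of 19 tested epithelial surface genes (keratins, claudins, Epcam, Cdh1 and splicing and trafficking genes of epithelium), none of them among the 10 factors. This raised the bleomycin libraries by factors of 1.12 to 1.64 and lowered the PBS libraries by factors of 0.755 to 0.784, and the median log2 fold change over all 12326 genes went from 0.09 to 0.72. Etv5 remained lower, by -1.71 ± 0.56 (SE, limma adjusted p = 0.0395), in a fit that called 1.45% of all genes lower and 45.6% higher. On the deposited scale it was at -2.43 ± 0.64 with a similar adjusted p (0.0389). The adjustment is easier to pass in a fit that calls more genes, so these adjusted p-values are not like for like. Ehf and Grhl2 were at -0.66 and -0.62 and no longer passed (adjusted p = 0.0841 and 0.0934), and Nkx2-1 was at -1.43 (adjusted p = 0.146). Elf3 and Gata6 were at -0.35 and -0.15, and Klf5 turned from -0.64 to 0.024. Of the 19 genes Cldn3 and Cldn4 are listed at 0 in some library. Without those 2, a check added after the values were seen, Etv5 was at -1.72 (limma adjusted p = 0.0302) and was again the only factor called, with 1.46% of all genes lower and 44.6% higher. On the scale of all 19 Etv5 measured 123, 107 and 39.9 FPKM with PBS and 50.9, 18.5 and 14.4 with bleomycin, so that bleomycin replicate 1 passed PBS replicate 3. On the deposited scale 6 of these 19 genes fell and 0 rose (limma, 12 and 0 at an unadjusted p under 0.05), including Esrp2, a splicing factor of epithelium (-1.46), and Rab25, a trafficking GTPase (-1.36). The 6 became 2 without PBS replicate 1 and 3 without PBS replicate 2, PBS replicate 3, bleomycin replicate 1 or bleomycin replicate 2. Epcam and Cdh1 were at -1.06 and -0.62 and did not pass (limma adjusted p = 0.0634 and 0.129). The list was mixed, with a median of -0.85 and with Krt8, Krt7 and Krt19 at -0.29, -0.0023 and 0.29. These keratins did not pass either (limma adjusted p = 0.739, 0.994 and 0.498). GRHL2 is known to act on several genes of this list, so the scale is not independent of that factor.

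The factors also differed between the bleomycin libraries. Bleomycin replicate 3 was the lowest of its group in 5 of the 9 tested factors, Etv5, Nkx2-1, Elf3, Gata6 and Klf5, and bleomycin replicate 1 in Ehf, Foxa1 and Foxa2. The same library, replicate 3, was lowest in 11 of 13 surfactant genes and in 13 of 19 epithelial surface genes. The surfactant sum was 10702, 8355 and 3872 FPKM in bleomycin replicates 1, 2 and 3, and the epithelial surface sum 438, 432 and 273. Leukocyte markers, at 1402, 977 and 1106 FPKM in that order, were highest in replicate 1. Among PBS libraries replicate 2 was highest in 6 of the 9 factors and replicate 3 lowest in 5.

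**Figure D3:**
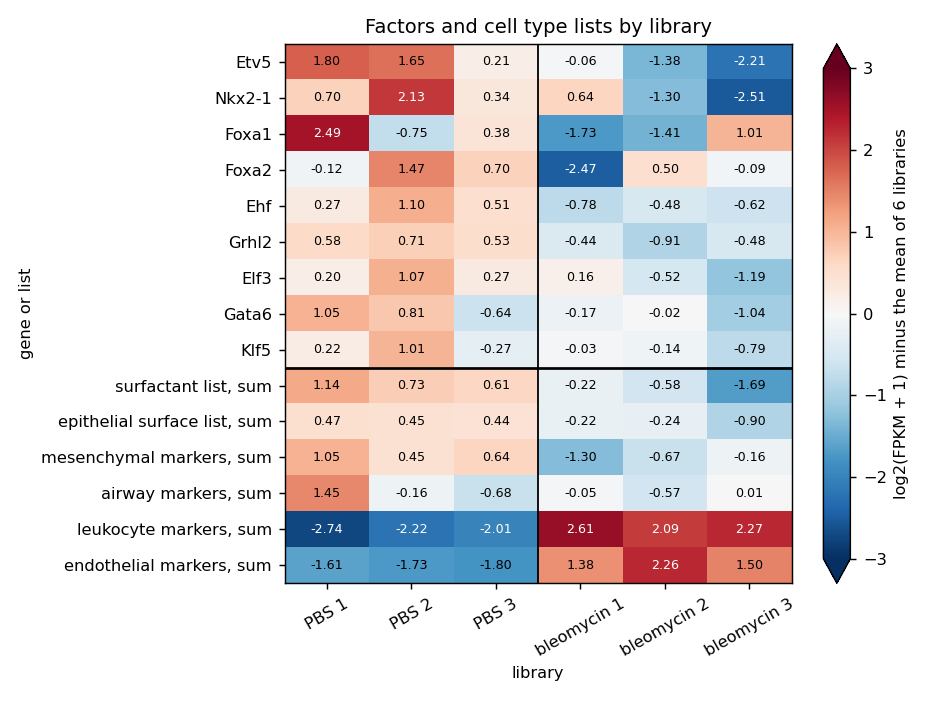
Log2(FPKM + 1) of each tested factor, and of the summed FPKM of 6 gene lists, in each library minus the mean of the 6 libraries, with red above and blue below that mean. Etv5 and Nkx2-1 run from 1.80 and 0.70 in PBS replicate 1 to -2.21 and -2.51 in bleomycin replicate 3, while the leukocyte and endothelial sums are above their means in each bleomycin library.

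Likeness of profiles was described by the root mean square difference of log2 values, each centred on its gene's mean, over the 6 libraries. Of all 12326 tested genes Etv5 was the nearest to Nkx2-1 (0.58 log2 units), followed by Blcap (0.65) and Mrpl34 (0.66). Nearest to Etv5 were Gm9847 (0.37), Atp1b1 (0.54), which encodes a subunit of the sodium pump, and Atp6v1c2 (0.57), a proton pump subunit, with Nkx2-1 the fifth. Gm9847 was low, at 8.31, 5.88 and 3.00 FPKM with PBS and 2.64, 0 and 0 with bleomycin, and an exact 0 can be a failed estimate. Atp6v1c2 fell by 2.15 on the log2 scale (limma adjusted p = 0.00343), and Atp1b1 was at -1.92 (adjusted p = 0.0728). Elf3 ranked 13 in likeness to Nkx2-1, at 0.81 log2 units. Foxa1 and Foxa2 were at 2.22 and 1.83 from Nkx2-1. These distances share the group difference and the same libraries and are a description.

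Other genes of the same factor families were described beside them. Of 24 tested relatives 7 rose and 1 fell, beside 15.2% and 7.34% of all tested genes. The 1 that fell was Elf5, an ETS factor of distal lung and gland epithelium, from 15.2 ± 0.976 to 4.24 ± 1.46 FPKM (-1.66 ± 0.22, limma adjusted p = 0.00317). Elf4, an ETS factor of lymphocytes, rose from 1.91 to 16.6 FPKM (log2 fold change 2.59), and the ETS genes Etv6 and Elf2 rose by 0.80 and 0.71. Gata2 and Gata3, used by endothelium, mast cells and T cells, rose by 2.87 and 2.34, while Gata6 was at -0.82. Gata3 was below 1 FPKM in every PBS library and could pass the filter only through bleomycin. Klf2, a factor of endothelium and resting T cells, rose by 1.87 and Klf3 by 1.83, while Klf5 was at -0.64. The calls of Etv6 and Elf2 were lost with equal library medians (limma adjusted p = 0.0647 and 0.103), and those of Klf3, Etv6 and Elf2 without single libraries, PBS replicate 3 and bleomycin replicate 1 in each case (0.052 to 0.104). Without bleomycin replicate 1 a count of 4 relatives rose, and with equal epithelial surface genes 13. Cebpb, the abundant CEBP gene here, measured 101 ± 14.7 and 130 ± 16.3 FPKM (limma adjusted p = 0.201).

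**Figure D4:**
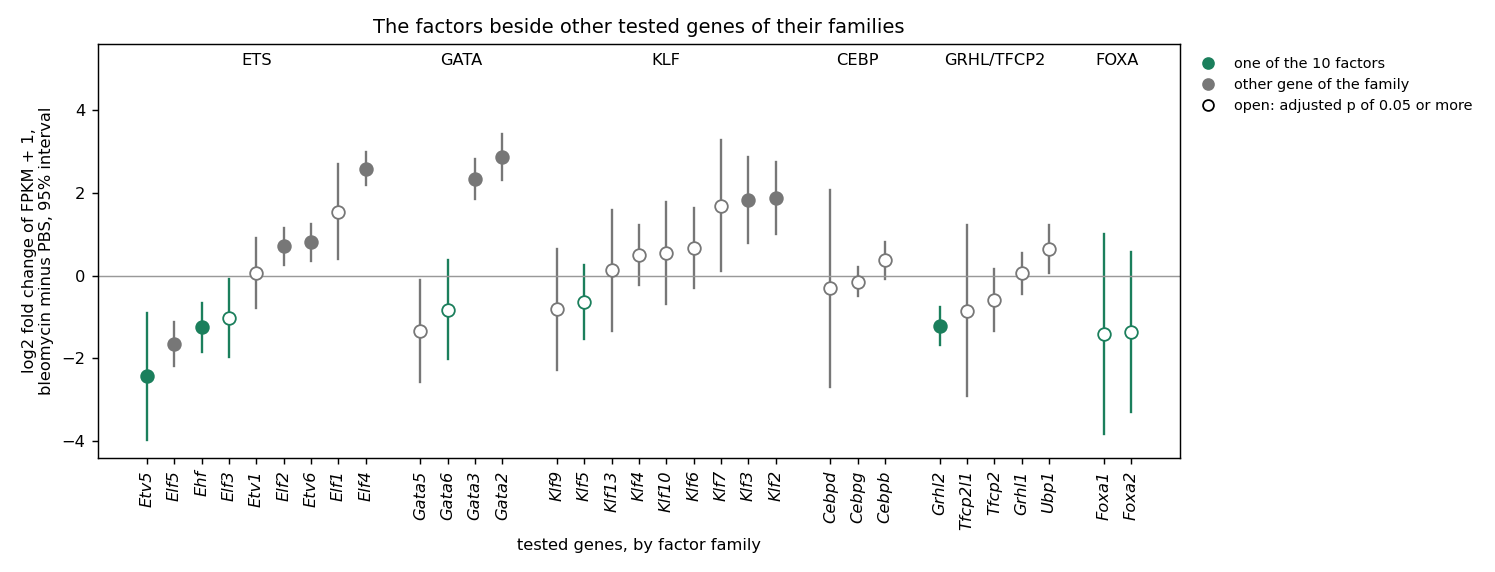
Log2 fold change of FPKM + 1, bleomycin minus PBS, with 95% intervals for the tested genes of each factor family, green for the 10 factors and grey for relatives, filled where the adjusted p is under 0.05. The ETS family spans -2.43 (Etv5) to 2.59 (Elf4), and the GATA family -1.33 (Gata5) to 2.87 (Gata2).

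Beside these, 22 other transcription factors and cofactors of lung epithelium were tested. Of these 8 fell and 1 rose, beside 7.34% and 15.2% of all tested genes, with a median log2 fold change of -0.61. Hopx was at 1.35, with every bleomycin value above every PBS value, and Foxj1 at 0.94. Neither passed (limma adjusted p = 0.133 and 0.084). The Iroquois genes Irx1, Irx2 and Irx3 fell by 1.95, 1.29 and 1.62 on the log2 scale, and Srebf1, of lipid synthesis, fell by 1.18 (limma adjusted p = 0.00645). Foxp1 rose by 0.91, a call lost when the highest transcript stood in for the gene sum (limma adjusted p = 0.0786), where 5 rather than 8 of the list fell. Without PBS replicate 1 all 3 Iroquois genes missed the threshold (limma adjusted p = 0.0554, 0.0508 and 0.0536), and without that library only 1 of the 8 falls stayed called, against 4 or 5 without any other library. With equal epithelial surface genes 2 of these genes were called lower and 5 higher, and the median was 0.09.

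Transcription factors of other cell types were tested in the same fit. Of 20 tested leukocyte factors 19 rose and 0 fell (limma, also 19 and 0 at an unadjusted p under 0.05), with a median of 2.15. Over all tested genes 15.2% were called higher and 7.34% lower. The leukocyte factors of smallest adjusted p were Tcf7, Ikzf1 and Tbx21 (3.77, 3.78 and 2.17). Of 9 endothelial factors 7 rose, among them Fli1 (2.68) and Lyl1 (1.63). Some of these genes, Tbx21 and Lyl1 among them, were below 1 FPKM in every PBS library and could pass the filter only through bleomycin. Such genes were tested only because they were high there, so these counts are in part fixed by the filter. Of 14 mesenchymal factors 0 passed the limma test in either direction, with a median of -0.93 and 8 lower at an unadjusted p under 0.05. With equal medians or quantile normalization 5 were called lower, without bleomycin replicate 3 a count of 7, without PBS replicate 2 a count of 2, and with array weights 6. With equal epithelial surface genes 0 were lower and 2 higher. Col1a1, a mesenchymal marker, fell from 276 ± 38.6 to 79.4 ± 50.2 FPKM (limma adjusted p = 0.0316), and no longer passed when bleomycin replicate 2 or any of the PBS libraries was left out (0.0746 to 0.0933).

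Genes that the factors are known to act on were described in the same way. Of 13 surfactant and lamellar body genes 10 fell and 0 rose (limma, 12 and 0 at an unadjusted p under 0.05), with a median of -1.66. Slc34a2, the phosphate transporter of AT2 cells, changed by -2.54, Abca3, the lamellar body lipid transporter, by -1.97, Muc1 by -1.89 and Sftpb by -1.82. Sftpc changed by -1.90 (limma adjusted p = 0.0349), a call lost without any library but bleomycin replicate 3 (0.0687 to 0.0968). The call was also lost with quantile normalization (0.449). That setting gives equal ranks equal values, so it can hide a fall in a gene of such high FPKM and bears little on it. Ctsh and Lyz2, the latter also a gene of macrophages, did not pass (-0.57 and -0.24, limma adjusted p = 0.109 and 0.848). With equal epithelial surface genes 9 of the 13 stayed lower, and the median was -0.91 beside 0.72 over all tested genes.

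Among 14 tested genes of FGF, EGF and MAP kinase signalling and its feedback, around Etv5, 6 fell and 1 rose. The receptor genes Fgfr2 and Erbb3 changed by -2.13 and -1.22 (limma adjusted p = 0.00511 and 0.00368) and the feedback gene Phlda1 by -1.26. The others that fell were the receptor genes Fgfr1 and Egfr and the feedback gene Spred2, while the phosphatase gene Dusp5 rose by 3.10. Other tested feedback genes did not pass in either direction, with Spry2, Dusp6 and Dusp4 at 1.01, 1.03 and 0.77. Spry1, Spred1 and Il17rd were at -1.47, -0.47 and -0.47. Without PBS replicate 1, PBS replicate 2 or bleomycin replicate 2 the number that fell was 3, and with equal epithelial surface genes 1 fell and 3 rose. Of the close relatives of Etv5, Etv1 was at 0.063 (limma adjusted p = 0.918), and Etv4 did not pass the filter on low values.

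For 4 of the factor genes 2 transcripts with values are listed. Transcript Nkx2-1-001, which starts within the longer Nkx2-1-002, made up 66.6 ± 10.8% of the gene's FPKM with PBS and 65.4 ± 4.54% with bleomycin (SD, n = 3). Etv5-001 made up 97.7 ± 0.827% and 95.8 ± 1.82%. In Elf3 the shares differed without overlap, with Elf3-002 at 71.2, 72.1 and 58.4% of the gene in the PBS libraries and 54.8, 49.3 and 37.0% in the bleomycin libraries. The exact two-sided permutation p of that share is 0.1, the smallest that 3 libraries against 3 allow, and 4 genes were compared in this way. Elf3-002 measured 9.23, 17.8 and 7.98 FPKM with PBS and 6.91, 3.70 and 1.60 with bleomycin, while Elf3-001, at 3.73, 6.86 and 5.68 and at 5.69, 3.80 and 2.73, overlapped between groups. These transcripts overlap along most of their length, so the split is an estimate.

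**Figure D5:**
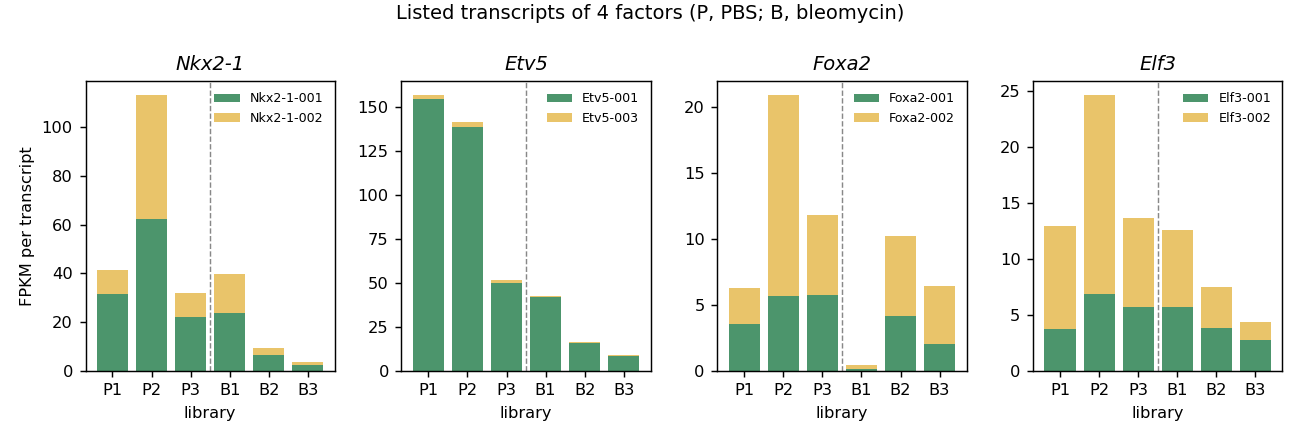
Stacked FPKM of the 2 listed transcripts of Nkx2-1, Etv5, Foxa2 and Elf3 in PBS (P1 to P3) and bleomycin (B1 to B3) libraries, each panel with its own axis from 0. Etv5 is nearly all Etv5-001 in each library, and the Elf3-002 part of Elf3 is 58.4 to 72.1% with PBS and 37.0 to 54.8% with bleomycin.

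The nearest listed genes on either side of each factor gene, chosen by position alone, gave 19 tested neighbours. Of these 5 fell and 2 rose, beside 7.34% and 15.2% of all tested genes. The neighbours were added after their values were seen. Elf5, 121 kb from Ehf on chromosome 2, is described above. Slc7a10, 64.5 kb from Cebpa, fell by 1.56 on the log2 scale (limma adjusted p = 0.0144), with its call lost without PBS replicate 3 (0.0518). Ncald, 2.61 kb beyond the end of Grhl2, Apip, on the other side of Ehf, and Ttc6, 29.7 kb from Foxa1, fell by 1.41, 0.86 and 0.66. Ncald no longer passed when any library was left out, Apip when any but bleomycin replicate 2 was, and Ttc6 when any but bleomycin replicate 1 was (limma adjusted p 0.0542 to 0.127). Xrn2, beside Foxa2, rose by 0.86 and Tra2b, beside Etv5, by 0.72, the latter not called with equal medians (limma adjusted p = 0.0635). Tra2b also failed to pass in 4 of the 6 fits that leave out a library, those lacking PBS replicates 2 and 3 and bleomycin replicates 1 and 3 (0.0543 to 0.0776). Nkx2-1 and Elf3 each overlap an antisense gene of GENCODE M21 on the other strand, as do Cebpa and Grhl2. Gata6 overlaps 1010001N08Rik, annotated as a processed transcript, also on the other strand. Whether the deposited values separate the strands was not stated in the labels.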

How the data were processed

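RNA of 6 AT2 preparations was sequenced after library preparation with a stranded kit, per the labels' protocols. HISAT2, StringTie and the build mm10 were used, per the submitters' processing notes, with annotation and settings not given in the sources used here. For each library the authors deposited 1 FPKM value for each of 24647 transcripts, summing to 253146 to 300697 FPKM. Depth and counting error are unknown.

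Transcripts were summed by gene ID. The 12326 genes that reached 1 FPKM in 3 libraries or more were tested on log2(FPKM + 1) by limma (version 3.58.1, R 4.3.3), with a group term, a variance trend and Benjamini-Hochberg adjustment over all of them at 0.05, a test also tried on simulated data. A gene could pass the filter through 1 group. An exact permutation test of 3 libraries against 3 cannot go below p = 0.1. The 10 factors and the gene lists were chosen with earlier results of these data known, and adjusted p-values come from the fit over all genes only. Named genes are the 10 factors, the genes of each list with the smallest adjusted p or a mean of 100 FPKM or more, some fixed markers and the 3 nearest profiles. Not all of these are printed. The positional neighbours, Elf5, Klf2, Klf3, Etv6, Elf2, Irx1, Irx2, Fgfr2, Gata5, Krt7, Krt8, Krt19 and further signalling genes named around Etv5 were added after their values were seen. Alternatives were a pseudocount of 0.1 or 5, no filter or 5 FPKM, 3 scalings, the highest transcript in place of the sum, no trend, array weights, a replicate block and leaving out each library. A further scaling was added after seeing the data.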

Additional observations from a re-analysis of the deposited data

How the results depend on the processing

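The fall of 3 factors, and the count of 0 that rose, held with pseudocounts of 0.1 and 5, without a filter, with equal medians, quantile normalization, the highest transcript, no trend and library weights. It was also seen at a filter of 5 FPKM, where Foxa1 was not tested and Ehf and Grhl2 passed through PBS alone, so that setting bears little on them. At an unadjusted p under 0.05, 5 of the 9 factors were lower and none was higher. The share of all tested genes at that threshold was not counted, here or for the lists above. With equal epithelial surface genes 1 factor was called lower, 2 factors had no overlap between groups, and 5797 genes were called in all, against 3, 4 and 2776. Without the 2 of those surface genes listed at 0 somewhere, a setting chosen after seeing the data, these were 1, 1 and 5681. With 1 library left out, 2 to 3 factors fell, 4 to 7 had no overlap and 1782 to 2630 genes were called. Non-overlap is easier to reach with fewer libraries, and its share over all tested genes was not counted in those fits. Over all alternatives the factors gave 149 values of unchanged direction and side of the threshold, 9 that lost the call, 1 that gained it and 2 that turned sign. Signs turned with equal epithelial surface genes for Klf5 (0.024, and 0.022 without those 2 genes), Cdh1 (0.12 in both), Ctsh (0.17 in both) and Lyz2 (0.51 and 0.50), and for Lyz2 without bleomycin replicate 2 (0.11) or 3 (0.31), while without bleomycin replicate 1 Lyz2 was called lower (-1.15). The labels number the libraries 1 to 3 in both groups, but same-numbered libraries did not deviate together over genes (r of -0.00431, 0.0172 and 0.0391), and not every library correlated best with its own number. With the replicate number as a block 3 factors still fell, 1922 genes were called, and 3 rather than 6 of the signalling genes around Etv5 fell. The low level of Ehf and Grhl2 and the unknown depth limit the precision of their folds.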
